A study of Rattus norvegicus with 9 samples.

Results

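Transcript levels of 10 genes that draw leukocytes to a vessel wall and hold them there were followed in cultured rat microvascular smooth muscle cells. The set was taken by symbol from a table of 26401 genes. It holds the chemokines Ccl2, Ccl7, Cxcl1, Cxcl12 and Cx3cl1, the cytokines Il6 and Lif, the adhesion molecules Vcam1 and Icam1, and Nfkbia, which encodes the inhibitor IkB-alpha. All 10 genes were found, 1 row each.

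RNA sequencing was done on 9 libraries of S31 cells, wild-type primary vascular smooth muscle cells first isolated from small vessels in the hearts of male Wistar Kyoto rats. The animals' age is not given in the labels. All cells were starved of serum for 48 h. Control cells then got serum-free medium with no factor, and treated cells got 25 ng/ml of a recombinant growth factor, rat PDGF-BB or human IGF-1. Both factors act through receptor tyrosine kinases. The study set the responses of these cells to the 2 factors beside each other.

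The 3 sets of 3 libraries are named here by the columns of the deposited table: control (LH-NS), IGF-NS and PDGF-NS. The labels cross here: records whose title says PDGF-BB point to the IGF-NS columns, and those whose title says IGF-1 point to PDGF-NS. The factor behind each treated set is therefore not settled, and no expression value was used to settle it. RNA was taken at 24 h from control and IGF-1 cells and at 48 h from PDGF-BB cells, so 1 treated set also differs from control in time. For that set, factor and time cannot be told apart. Separate cultures are not stated for the libraries of a set, so p-values cover only the spread between these libraries, which may be technical.

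Chemokines are small secreted proteins that attract leukocytes through receptors on the leukocyte surface. Ccl2 and Ccl7 attract monocytes, Cxcl1 attracts neutrophils, Cxcl12 acts through Cxcr4 and holds stem and immune cells in their niches, and Cx3cl1 is made as a membrane-bound protein that can be shed. Il6 and Lif belong to 1 cytokine family that signals through the shared receptor chain gp130, encoded by Il6st, to Stat3. Vcam1 and Icam1 are surface proteins that leukocyte integrins bind. Many of these genes are classical targets of NF-kB, a transcription factor held in the cytoplasm by IkB proteins. Nfkbia is itself an NF-kB target and closes a feedback loop.

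The promoter sequences of 6 of these genes show how the NF-kB consensus lies in some of them and is missing from the same window in the most abundant chemokine, Cxcl12. Each run is the 100 bases before the transcription start, read 5′ to 3′ on the gene's strand, from RefSeq on build GRCr8. Capitals mark letters that match the 10-base NF-kB consensus, which begins with GG and ends with CC. In Cxcl1 the capitals cover 2 overlapping matches. The consensus is its own reverse complement, so 1 search covers both strands.

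Ccl7: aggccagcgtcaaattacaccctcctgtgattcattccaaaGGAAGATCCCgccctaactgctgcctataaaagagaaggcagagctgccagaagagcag
Cxcl1: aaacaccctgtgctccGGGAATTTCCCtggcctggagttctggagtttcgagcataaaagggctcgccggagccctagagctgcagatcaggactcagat
Il6: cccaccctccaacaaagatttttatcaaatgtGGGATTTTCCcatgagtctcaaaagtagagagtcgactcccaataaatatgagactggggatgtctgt
Vcam1: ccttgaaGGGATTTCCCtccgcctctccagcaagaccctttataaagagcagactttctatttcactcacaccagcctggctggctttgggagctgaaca
Nfkbia: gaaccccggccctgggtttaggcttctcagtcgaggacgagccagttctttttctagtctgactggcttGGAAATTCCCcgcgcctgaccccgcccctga
Cxcl12: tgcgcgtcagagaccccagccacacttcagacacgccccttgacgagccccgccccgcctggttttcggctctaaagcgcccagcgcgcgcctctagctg

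These windows lie at chr10:67513995-67514094 (plus strand) for Ccl7, chr14:17479322-17479421 (minus) for Cxcl1 and chr4:5894576-5894675 (minus) for Il6. Vcam1 is at chr2:206742784-206742883 (minus), Nfkbia at chr6:78597073-78597172 (minus) and Cxcl12 at chr4:152060681-152060780 (plus). Over a window of 300 bases, 250 before and 50 after the start, 5 of the 8 genes with a promoter entry held at least 1 match: Ccl7, Cxcl1, Il6, Vcam1 and Nfkbia. Cxcl12, Cx3cl1 and Icam1 held 0 there. Of 33469 rat promoters of that length, 3526 (10.5%) held a match. The match in Nfkbia begins 31 bases before the start, in Ccl7 59, in Il6 68 and in Vcam1 93, and those of Cxcl1 begin 84 and 83 bases before it. A match describes letters and is no evidence of binding, and its lack says only that the letters are not in this window. Ccl2 and Lif are named only.

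Levels are given as deposited FPKM, fragments scaled to transcript length and library size, which are comparable between genes per length. In control cells the 10 genes spanned a wide range. Cxcl12 averaged 234 ± 31 FPKM (SD, n = 3) and Icam1 110 ± 14.5, above 96.6% and 92.3% of the 11376 tested genes. Cx3cl1 (29.6 ± 6.49), Ccl2 (16.8 ± 9.67) and Nfkbia (16.5 ± 3.10) stood in the middle, and the ranges of Ccl2 and Nfkbia overlap. Cxcl1 (6.11 ± 4.66), Ccl7 (4.25 ± 1.95), Vcam1 (3.85 ± 1.27) and Lif (3.40 ± 1.12) were low and overlap each other. Il6 was lowest at 1.02 ± 0.585 FPKM, above 3.2% of tested genes.

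Differences were tested with limma on log2(FPKM + 1) over all 11376 genes that averaged 1 FPKM or more, with p-values adjusted over all of them by the Benjamini-Hochberg method. The added 1 FPKM makes the changes of weakly expressed genes look smaller than they are. Genes with an adjusted p under 0.05 are said to have risen or fallen. All 10 genes passed the filter on low values, and Il6 did so only through the PDGF-NS libraries. Against control, 2 of the 10 rose and 1 fell in IGF-NS, where 17.4% of all tested genes rose and 7.48% fell. In PDGF-NS 5 rose and 0 fell, where 20.7% rose and 10.2% fell. Set against IGF-NS, 4 were higher and 2 lower in PDGF-NS, where 8.33% of all tested genes were higher and 7.55% lower. The median log2 difference of the 10 was -0.09 in IGF-NS and 0.85 in PDGF-NS against control, beside 0.15 and 0.132 for all genes. Scaling by median ratios brought those medians of all genes to 0.007 and 0.014, so differences of that size on the deposited scale are those of the typical gene. For PDGF-NS against IGF-NS the medians were 0.58 for the 10 genes and -0.023 for all. The balance of rises and falls depends on the scaling. In IGF-NS against control 1976 genes rose and 851 fell as deposited, 1882 and 877 with a common FPKM sum, 1137 and 1229 with median ratio scaling, and 1214 and 1171 with quantile normalization. The 10 genes gave 2 and 1 under each. In PDGF-NS against control 2355 rose and 1166 fell as deposited, 1698 and 1678 with a common sum, 1768 and 1678 with median ratios, and 1692 and 1752 with quantiles. Of the 10 genes, 4 then rose and 2 fell with a common sum or median ratios, and 4 rose and 3 fell with quantiles: Cxcl1 lost its call, Cxcl12 and Icam1 passed as lower, and Lif did so with quantiles. In PDGF-NS against IGF-NS 948 were higher and 859 lower as deposited, 737 and 1480 with a common sum, 1057 and 809 with median ratios, and 962 and 943 with quantiles. The 10 genes gave 4 and 2, or 5 and 2 with quantiles. The 2 comparisons with control share the control libraries.

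**Figure D1:**
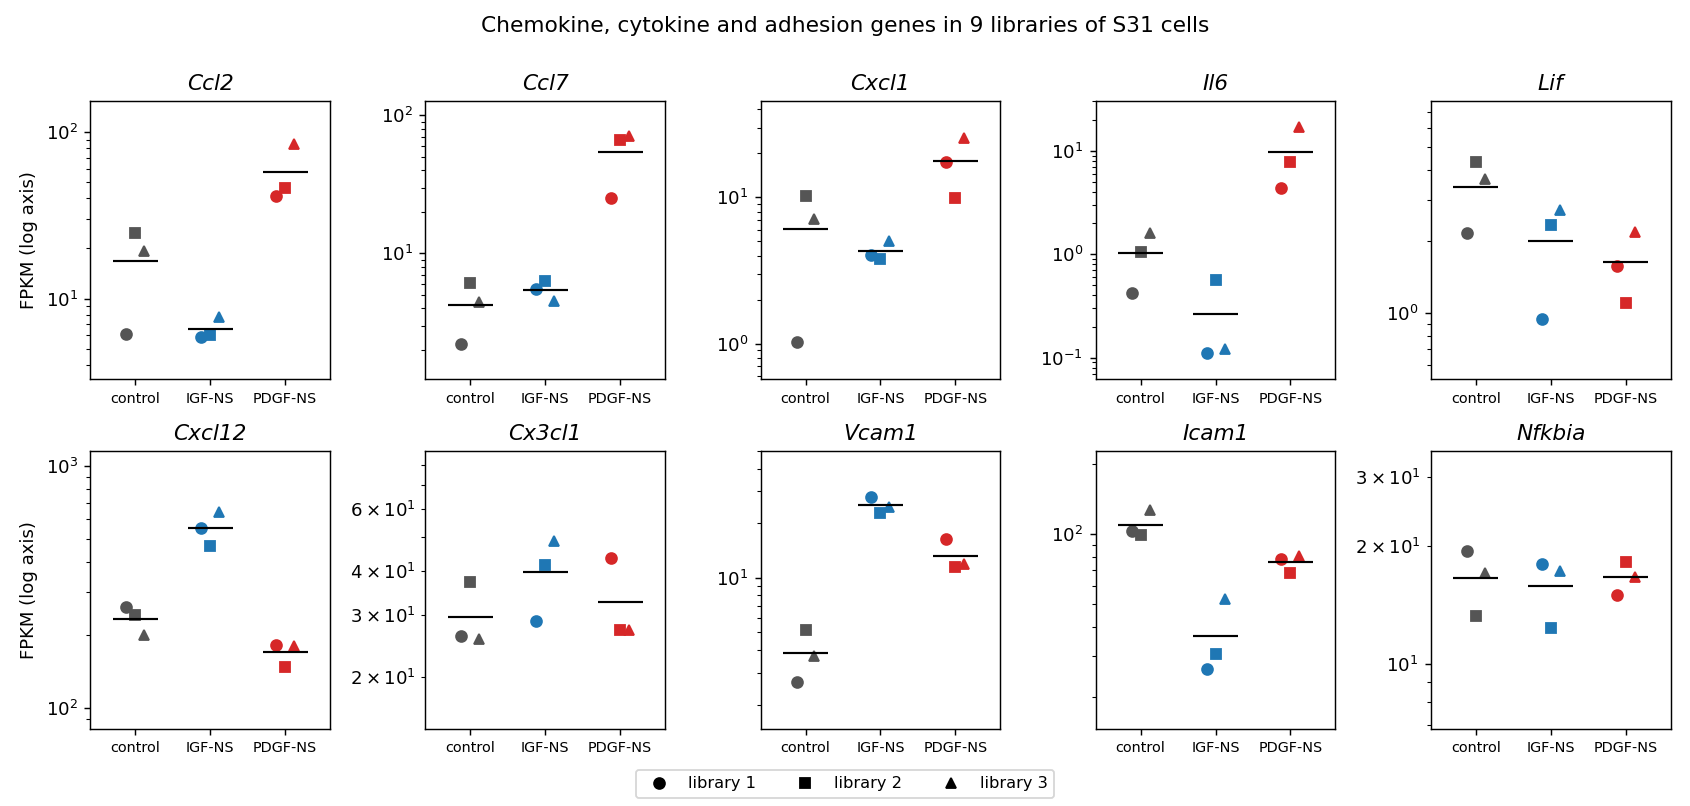
FPKM of the 10 genes (log axis, with its own range in each panel) in the 3 control, 3 IGF-NS and 3 PDGF-NS libraries; points are libraries and bars are means. Ccl2, Ccl7 and Il6 are highest in all 3 PDGF-NS libraries, Cxcl12 and Vcam1 in all 3 IGF-NS libraries, and Icam1 in all 3 control libraries.

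The monocyte chemoattractants Ccl2 and Ccl7 and the cytokine Il6 were at their highest in PDGF-NS. Ccl2 (ENSRNOG00000007159) had 6.12, 24.9 and 19.4 FPKM in control, 5.91, 6.07 and 7.71 across IGF-NS, and 41.2, 45.9 and 85.5 across PDGF-NS. The PDGF-NS libraries lay above all others, and control library 1 sat with the IGF-NS libraries, apart from the other control libraries. Ccl2 rose in PDGF-NS by 1.83 ± 0.43 (SE) on the log2 scale (limma, adjusted p = 0.0096), and the group means differed 3.42-fold. Its difference from control in IGF-NS was -1.05 ± 0.43, with an adjusted p of 0.10. Without control library 1 that difference was -1.61 with an adjusted p of 0.0048, so the lack of a call rests on that library. Ccl2 was also higher in PDGF-NS than in IGF-NS, by 2.88 ± 0.43 (limma, adjusted p = 0.0015).

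Ccl7 (ENSRNOG00000000239) had 2.21, 6.10 and 4.45 FPKM in control, 5.48, 6.33 and 4.54 across IGF-NS, and 25.1, 66.5 and 70.6 across PDGF-NS. Control and IGF-NS overlapped, and the PDGF-NS libraries stood above both, with library 1 the lowest of them. Ccl7 rose in PDGF-NS by 3.33 ± 0.39 (limma, adjusted p = 0.00017), with means 12.7-fold apart. The difference in IGF-NS was 0.36 ± 0.39, with an adjusted p of 0.53 and a 95% interval from -0.50 to 1.22. The difference between the treated sets was 2.97 ± 0.39 (limma, adjusted p = 0.00067).

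Ccl2 and Ccl7 are neighbours in the RefSeq gene order on chromosome 10, followed by Ccl11, Ccl12 and Ccl1. The eotaxin gene Ccl11 averaged 0, 0.0405 and 1.26 FPKM in control, IGF-NS and PDGF-NS and was under the filter, and Ccl12 and Ccl1 were listed at 0 in every library. The ratio of Ccl7 to Ccl2 was 0.361, 0.245 and 0.229 in control, 0.928, 1.04 and 0.589 across IGF-NS, and 0.61, 1.45 and 0.825 across PDGF-NS. Ccl2 transcripts thus outnumbered those of Ccl7 in every control library, and the 2 treated sets, which overlap, both lay above control in this ratio.

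Cxcl1 (ENSRNOG00000002802) had 1.03, 10.2 and 7.10 FPKM in control, 4.05, 3.78 and 5.06 across IGF-NS, and 17.5, 9.85 and 25.3 across PDGF-NS. Control library 1 was far below the other control libraries, and PDGF-NS library 2 overlapped the control range. The rise in PDGF-NS was 1.61 ± 0.55 with a limma adjusted p of 0.047, just under the threshold. That call was lost in 16 of 19 alternatives, with adjusted p-values from 0.051 to 0.16 in these. Without control library 1 the difference was 0.87 (adjusted p = 0.075), and without PDGF-NS library 3 it was 1.32 (0.16). The call was also lost without control 3, any 1 IGF-NS library or PDGF-NS 1 (adjusted p from 0.052 to 0.11). The difference in IGF-NS was -0.11 ± 0.55 with an adjusted p of 0.91, and between the treated sets 1.72 ± 0.55 with 0.059, which passed in 4 of 19 alternatives: without control library 1 (0.0034), without control library 2 (0.042), with only the 6 libraries compared (0.0061) and with quantile normalization (0.048).

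Il6 (ENSRNOG00000010278) had 0.424, 1.04 and 1.59 FPKM in control, 0.112, 0.568 and 0.122 across IGF-NS, and 4.41, 7.82 and 16.8 across PDGF-NS. Every PDGF-NS library was above every other library, and the IGF-NS and control ranges overlapped below 1 FPKM. Il6 rose in PDGF-NS by 2.27 ± 0.39 (limma, adjusted p = 0.0019), with means 9.48-fold apart. Il6 passed the filter on low values only through the PDGF-NS libraries, so its being tested rested on the set where it is high. Its value in IGF-NS was -0.65 ± 0.39 with an adjusted p of 0.26. The difference from IGF-NS was 2.92 ± 0.39 (limma, adjusted p = 0.00081). Because Il6 was so low outside PDGF-NS, these sizes depend on the pseudocount: with 0.1 FPKM in place of 1 they were 3.07 against control and 4.74 against IGF-NS, with adjusted p-values of 0.0055 and 0.00093.

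Lif, the other cytokine of the gp130 family among the 10 (ENSRNOG00000007002), showed no rise. It had 2.17, 4.34 and 3.68 FPKM in control, 0.945, 2.35 and 2.71 across IGF-NS, and 1.58, 1.10 and 2.20 across PDGF-NS. All 3 sets overlapped. Its differences from control were -0.57 ± 0.29 in IGF-NS and -0.73 ± 0.29 in PDGF-NS, with limma adjusted p-values of 0.18 and 0.084. Without control library 1 the latter was -0.95 with an adjusted p of 0.042, and with quantile normalization it was -0.94 with 0.033.

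Cxcl12 and Vcam1 were at their highest in IGF-NS. Cxcl12 (ENSRNOG00000013589) had 261, 241 and 200 FPKM in control, 554, 468 and 641 across IGF-NS, and 182, 148 and 180 across PDGF-NS. The 3 sets did not overlap, in the order IGF-NS, control, PDGF-NS. Cxcl12 rose in IGF-NS by 1.24 ± 0.16 (limma, adjusted p = 0.00064), with means 2.37-fold apart. In PDGF-NS the difference was -0.46 ± 0.16 with an adjusted p of 0.053. It passed in 6 of 19 alternatives, among them all 3 other scalings, with values from -0.60 to -0.56 and adjusted p-values from 0.013 to 0.028. Without control library 3 it was -0.56 (0.039), and it also passed without IGF-NS library 2 (0.043) or 3 (0.041). Between the treated sets Cxcl12 was lower in PDGF-NS by 3.26-fold, with a log2 difference of -1.70 ± 0.16 (limma, adjusted p = 9.8e-05).

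Vcam1 (ENSRNOG00000014333) had 2.65, 5.17 and 3.72 FPKM in control, 28.0, 22.7 and 24.6 across IGF-NS, and 16.3, 11.5 and 11.9 across PDGF-NS. The 3 sets were fully apart, with control lowest and PDGF-NS between the others. Vcam1 rose in IGF-NS by 2.46 ± 0.21 (limma, adjusted p = 5.7e-05) and in PDGF-NS by 1.57 ± 0.21 (adjusted p = 0.00036), 6.53-fold and 3.45-fold by means. Its level was lower in PDGF-NS than in IGF-NS by 1.90-fold, a log2 difference of -0.89 ± 0.21 (adjusted p = 0.016). That call was lost without IGF-NS library 1 (-0.81, adjusted p = 0.064), PDGF-NS library 2 (-0.80, 0.066) or PDGF-NS library 3 (-0.82, 0.072).

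Icam1 moved the other way. Icam1 (ENSRNOG00000020679) had 103, 99.7 and 127 FPKM in control, 26.4, 30.7 and 52.7 across IGF-NS, and 78.3, 68.2 and 80.8 across PDGF-NS. The sets did not overlap, in the order control, PDGF-NS, IGF-NS. It fell by 1.62 on the log2 scale in IGF-NS (SE 0.22, limma adjusted p = 0.00095), with a mean 3.00-fold lower. The difference in PDGF-NS was -0.53 ± 0.22 with an adjusted p of 0.10. It passed in 5 of 19 alternatives, with -0.67 and 0.037 after rescaling to a common FPKM sum, -0.66 and 0.047 after median ratio scaling, and 0.016 without IGF-NS library 3. Between the treated sets it was higher in PDGF-NS by 1.09 ± 0.22 (limma, adjusted p = 0.0089).

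The ratio of Vcam1 to Icam1 puts both adhesion molecules on 1 scale within a library. It was 0.0256, 0.0519 and 0.0294 in control, 1.06, 0.741 and 0.468 across IGF-NS, and 0.209, 0.169 and 0.147 across PDGF-NS. Control cells held far more Icam1 than Vcam1 transcript, while the gap was far smaller in IGF-NS, where library 1 held slightly more Vcam1. The sets do not overlap in this ratio, which averaged 0.0356 ± 0.0142, 0.757 ± 0.297 and 0.175 ± 0.0312 (SD, n = 3 each).

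Cx3cl1 and Nfkbia passed the test in no comparison. Cx3cl1 (ENSRNOG00000016326) had 26.1, 37.1 and 25.7 FPKM in control, 28.9, 41.5 and 48.7 across IGF-NS, and 43.6, 27.2 and 27.1 across PDGF-NS, with all sets overlapping. Its differences from control were 0.40 ± 0.24 (limma, adjusted p = 0.26) and 0.12 ± 0.24 (adjusted p = 0.74). Nfkbia (ENSRNOG00000007390) had 19.4, 13.2 and 17.0 FPKM in control, 18.0, 12.3 and 17.2 across IGF-NS, and 15.0, 18.2 and 16.6 across PDGF-NS. Its means, 16.5, 15.8 and 16.6 FPKM, lay within the spread of each set. The 95% interval of its log2 difference from control ran from -0.46 to 0.34 in IGF-NS and from -0.38 to 0.41 in PDGF-NS.

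**Figure D2:**
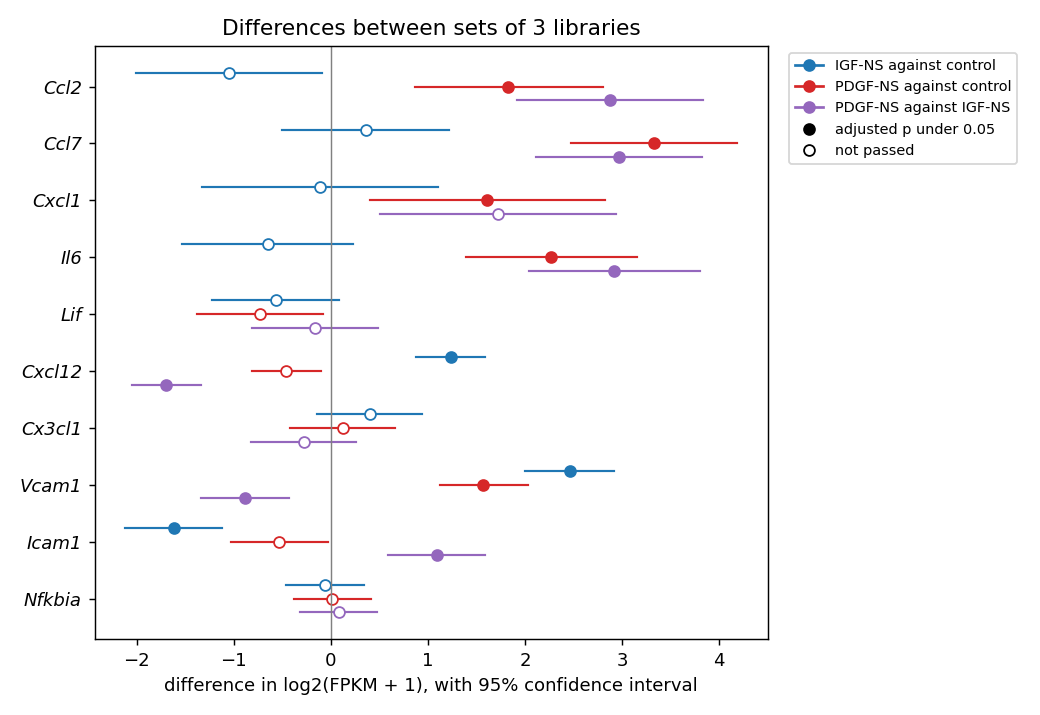
Log2 differences of the 10 genes with 95% confidence intervals (x axis, log2(FPKM + 1)) in the 3 comparisons, 3 libraries a set; filled points passed an adjusted p of 0.05 in limma and open points did not. Ccl2, Ccl7, Cxcl1 and Il6 lie to the right in PDGF-NS against control, Vcam1 lies to the right in both treated sets, and the intervals of Nfkbia cross 0 in all 3 comparisons.

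Single libraries were the lowest or highest of their set for several of these genes, as for many other genes. Control library 1 was the lowest control library for 6 of the 10 (Ccl2, Ccl7, Cxcl1, Il6, Lif and Vcam1), as it was for 40.8% of all tested genes. PDGF-NS library 3 was the highest of its set for 6 (Ccl2, Ccl7, Cxcl1, Il6, Lif and Icam1), as it was for 39.9% of all genes. Without control library 1 the rises in PDGF-NS were 1.27 for Ccl2, 3.01 for Ccl7, 2.04 for Il6 and 1.38 for Vcam1, with adjusted p-values of 0.0098, 0.00058, 0.0071 and 0.00086. Without PDGF-NS library 3 they were 1.51, 3.07, 1.82 and 1.64, with adjusted p-values of 0.044, 0.0013, 0.0051 and 0.0019. All 4 rises passed with either library left out.

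Over the whole series, the deposited FPKM summed to between 616765 and 748000 per library, and 11047 to 11348 genes reached 1 FPKM. Low-value steps in the table give a relative depth of 0.66 to 1.34, with control library 1 as 1. The number of reads is unknown. Across genes, libraries of 1 set correlated at 0.9588 to 0.9826 and libraries of different sets at 0.9009 to 0.9468. Smooth muscle markers summed to 2610 to 3740 FPKM in control, 647 to 688 across IGF-NS and 421 to 458 across PDGF-NS. Of the 9 tested, 0 rose and 7 fell in IGF-NS, where 17.4% of all tested genes rose and 7.48% fell. In PDGF-NS 1 rose and 7 fell, where 20.7% rose and 10.2% fell. Tagln, the actin-binding protein transgelin, fell in both (2110 ± 518, 358 ± 13.6 and 211 ± 37.5 FPKM). The riser was Des, the intermediate filament protein desmin, which had 1.51 ± 0.261, 0.301 ± 0.139 and 5.18 ± 0.334 FPKM and fell in IGF-NS (limma, adjusted p = 0.0037 and, in PDGF-NS, 0.00036). Des passed the filter on low values only through the PDGF-NS libraries, so its being tested rested on the set where it is high.

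Markers of other cell types were read in the same libraries. Of 14 leukocyte markers, 12 averaged under 1 FPKM and 7 were listed at 0 everywhere, among them Ptprc, the pan-leukocyte CD45. Their summed level was 1.92 to 3.15 FPKM in control, 1.60 to 4.06 across IGF-NS and 2.95 to 12.3 across PDGF-NS. The macrophage marker Cd68 had 9.37, 1.39 and 2.13 FPKM in PDGF-NS and at most 0.784 elsewhere. It rose against control by 1.83 ± 0.47 (limma, adjusted p = 0.015), or by 1.19 without PDGF-NS library 1 (0.017). Cd68 passed the filter on low values only through the PDGF-NS libraries, so its being tested rested on the set where it is high. Its part in the results of Ccl2, Ccl7, Il6 and the other genes was not tested. Endothelial markers summed to 10.9 to 11.1 FPKM in control, 4.19 to 6.61 across IGF-NS and 6.00 to 9.38 across PDGF-NS. Of these 11 genes 9 averaged under 1 FPKM, 4 were listed at 0 everywhere, Cdh5 (VE-cadherin) among them, and Pecam1 reached 0.192 at most. The other 2 were tested: 0 rose and 1 fell in IGF-NS, where 17.4% of all tested genes rose and 7.48% fell. The faller was Erg, with log2 differences from -1.42 to -0.93 when single libraries were left out. Neither was called in PDGF-NS against control, where 20.7% rose and 10.2% fell.

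Fibroblast markers summed to 331 to 447 FPKM in control, 1920 to 2050 across IGF-NS and 878 to 1350 across PDGF-NS. Most of that sum was Lum, the matrix protein lumican (340 ± 59.7, 1790 ± 79.0 and 1060 ± 257 FPKM), which stood in the same order as Vcam1. Of the 7 tested, 4 rose in IGF-NS (median 0.85) and 6 in PDGF-NS (median 1.22), and 0 fell in either. Over all tested genes, 17.4% rose and 7.48% fell in IGF-NS, and 20.7% rose and 10.2% fell in PDGF-NS. Between the treated sets Dcn and Lum were lower in PDGF-NS, by log2 differences of -2.38 and -0.78 (limma, adjusted p = 0.00028 and 0.024). The call of Lum was lost without any 1 IGF-NS library or PDGF-NS 2 or 3 (0.051 to 0.073). Dpt and Col15a1 were higher there, by 2.17 and 1.39 (0.0023 and 0.00021), so the markers did not share 1 order. The part of these markers in the adhesion molecule results was not tested. In bulk RNA, fewer cells of a type and less RNA per cell cannot be told apart.

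Set beside the rest of the chemokine family, the 5 chemokines made up most of what these cells expressed. Of 36 chemokine genes, which leave out the chemokine-like factor Cklf, 13 were listed at 0 in every library, 15 averaged under 1 FPKM and 8 averaged at least 1. The summed chemokine level was 331, 368 and 306 FPKM in control, 638, 569 and 744 across IGF-NS, and 373, 339 and 440 across PDGF-NS. Without Cxcl12 the sums averaged 102 ± 28.9, 95.7 ± 10.2 and 214 ± 39.5 FPKM. The total was thus highest in the IGF-NS libraries, and the total without Cxcl12 in the PDGF-NS libraries.

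Cxcl12 was 78.7, 65.3 and 65.3% of the chemokine sum in control, 86.8, 82.3 and 86.2% across IGF-NS, and 48.8, 43.5 and 40.9% across PDGF-NS. Ccl2 was 1.85, 6.77 and 6.34% in control, 0.926, 1.07 and 1.04% across IGF-NS, and 11, 13.5 and 19.4% across PDGF-NS. Ccl7 was at most 1.66% in control and 1.11% across IGF-NS, and 6.73, 19.6 and 16.0% across PDGF-NS. The 3 sets do not overlap in the share of Cxcl12 or of Ccl2. These shares are parts of 1 sum, so a larger share of one lowers the others.

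Of the other 32 listed genes, Cklf included, 4 were tested and 0 were called by limma in any comparison. Over all 11376 tested genes, 2827 were called in IGF-NS and 3521 in PDGF-NS against control, and 1807 between the treated sets. Among the 4 tested chemokines Cxcl16, like Cx3cl1 a transmembrane chemokine, had 38.9 ± 5.24, 36.5 ± 2.69 and 44.8 ± 11.2 FPKM in control, IGF-NS and PDGF-NS, overlapping in all sets. The medians of these 4 were -0.17 in IGF-NS and 0.44 in PDGF-NS against control.

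**Figure D3:**
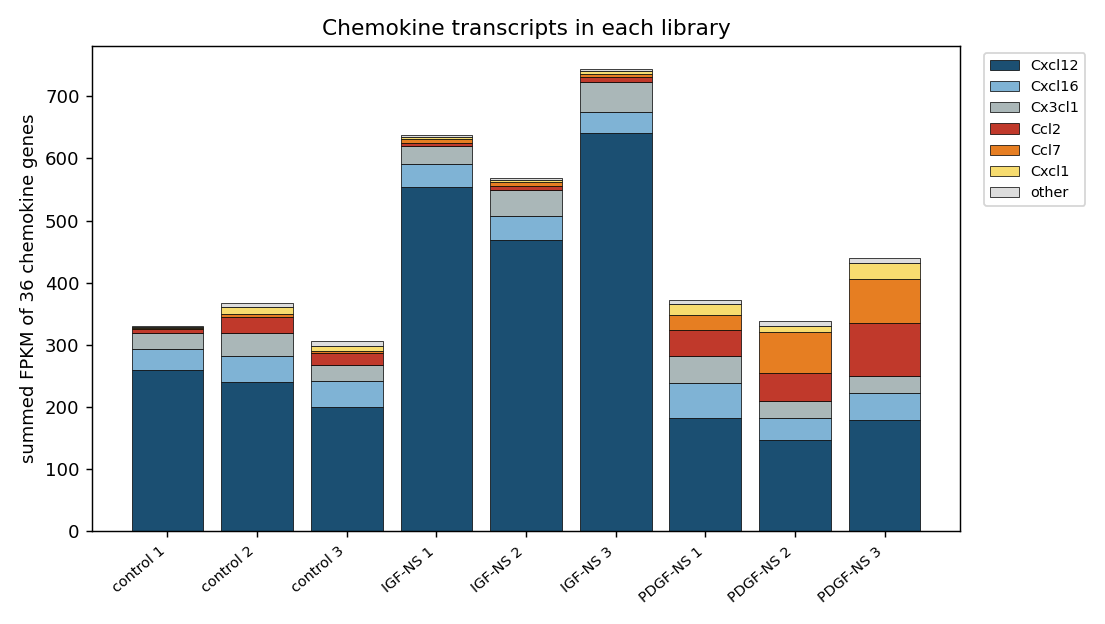
Summed FPKM of 36 chemokine genes in each of the 9 libraries, split by gene, with the 6 most abundant named in the key. Cxcl12 is the largest piece of every bar, the IGF-NS bars are the tallest (569 to 744 FPKM), and Ccl2 and Ccl7 are widest in PDGF-NS.

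Most of the chemokine receptor genes with a value were low. Of 24 listed receptor genes 22 were matched in the table and 4 were tested. Ccr2 and Ackr1 were unmatched, so their levels are unknown here. In IGF-NS 0 rose and 1 fell (median 0.40), where 17.4% of all tested genes rose and 7.48% fell. In PDGF-NS 0 rose and 2 fell (median -0.39), where 20.7% rose and 10.2% fell. Cxcr4, the signalling receptor of Cxcl12, was listed at 0 in every library. Ackr3, which binds Cxcl12 and removes it, had 79.5, 122 and 115 FPKM in control, 224, 167 and 140 across IGF-NS, and 71.9, 33.2 and 50.2 across PDGF-NS. Its order across the sets was that of Cxcl12, with no overlap. It was lower in PDGF-NS than in IGF-NS by a log2 difference of -1.79 ± 0.28 (limma, adjusted p = 0.0020) and than in control by -1.06 ± 0.28 (0.017), a call lost without 4 single libraries (control 2 or 3, PDGF-NS 2 or 3, adjusted p from 0.05 to 0.06). In IGF-NS the difference was 0.73 ± 0.28 with an adjusted p of 0.083. Cmklr1, the chemerin receptor, fell in both treated sets, from 53.2 ± 11.5 FPKM to 30.7 ± 5.74 in IGF-NS and 18.9 ± 6.04 in PDGF-NS. The log2 differences were -0.77 and -1.47 (SE 0.25 each, limma adjusted p = 0.046 and 0.0016). The call in IGF-NS was lost in 10 alternatives, 6 of them leaving out a single library (0.067 to 0.14).

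Among the integrins that leukocytes use to bind these adhesion molecules, 2 of 9 were tested. Itga4, whose product pairs with that of Itgb1 to bind Vcam1, fell in both treated sets, from 7.89 ± 2.86 FPKM in control to 2.43 ± 0.486 with IGF-NS and 2.95 ± 0.896 with PDGF-NS (log2 differences of -1.33 and -1.14, limma adjusted p = 0.0060 and 0.0089). Itgb1 fell in IGF-NS by 0.87 (adjusted p = 0.0033), and in PDGF-NS its difference was -0.41 (0.066). Itgb2, the chain shared by the integrins that bind Icam1, reached 0.0523 FPKM at most.

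Of 20 other adhesion and transmigration molecules 12 were tested, with 1 rising and 3 falling in IGF-NS and 3 rising and 2 falling in PDGF-NS (medians -0.30 and 0.03). Over all tested genes, 17.4% rose and 7.48% fell in IGF-NS, and 20.7% rose and 10.2% fell in PDGF-NS. Cd44, the hyaluronan receptor, had 22.8, 26.9 and 40.7 FPKM in control, 12, 16.4 and 13.8 across IGF-NS, and 85.6, 65.8 and 73.5 across PDGF-NS. The sets lay fully apart, and Cd44 fell in IGF-NS by 1.02 (SE 0.21, limma adjusted p = 0.0070) and rose in PDGF-NS by 1.32 ± 0.21 (0.0011). Ncam1, the neural cell adhesion molecule, rose in both sets as Vcam1 did, from 23.8 ± 4.81 to 87.0 ± 2.42 and 45.6 ± 9.22 FPKM (adjusted p = 0.00011 and 0.0035). Mcam, an adhesion molecule of vascular cells, fell from 60.6 ± 7.80 to 17.2 ± 2.50 and 9.33 ± 2.58 FPKM (adjusted p = 0.00022 and 1.2e-05).

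Genes for shedding and clearing such ligands numbered 8, of which 7 were tested. In IGF-NS 0 rose and 3 fell (median -0.32), where 17.4% of all tested genes rose and 7.48% fell. In PDGF-NS 1 rose and 3 fell (median -0.47), where 20.7% rose and 10.2% fell. Timp3, an inhibitor of the shedding protease Adam17, fell from 504 ± 77.6 FPKM to 285 ± 40.9 (IGF-NS) and 184 ± 22.8 (PDGF-NS, limma, adjusted p = 0.0059 and 0.00014). Adam17 itself had 11.9 ± 1.84, 9.26 ± 0.268 and 13.1 ± 1.10 FPKM, with adjusted p-values of 0.11 and 0.51 against control. The heparan sulfate carrier Sdc4, a binding partner of Cxcl12, fell in IGF-NS from 169 ± 37.3 to 70.5 ± 13.8 FPKM (adjusted p = 0.0013), and Dpp4, a protease that clips Cxcl12, was listed at 0 in every library.

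Il6 and Lif act through a shared relay. Of 21 other genes of the IL-6 family and its JAK-STAT3 relay, 19 were tested. In IGF-NS 3 rose and 2 fell (median -0.07), where 17.4% of all tested genes rose and 7.48% fell. In PDGF-NS 7 rose and 3 fell (median 0.28), where 20.7% rose and 10.2% fell. Between the treated sets 5 were higher and 3 lower in PDGF-NS, where 8.33% of all genes were higher and 7.55% lower.

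In PDGF-NS the receptor genes Osmr, Il6r and Lifr rose and the shared chain Il6st fell. Osmr, the oncostatin M receptor, had 5.69, 10.3 and 11.4 FPKM in control, 3.90, 10.0 and 7.20 across IGF-NS, and 35.7, 40.9 and 41.6 across PDGF-NS. Control and IGF-NS overlapped, and the PDGF-NS libraries lay above both, with a rise of 2.04 ± 0.30 (limma, adjusted p = 0.00071). Il6r, which binds Il6 itself, rose there from 1.73 ± 0.307 to 5.45 ± 0.21 FPKM (adjusted p = 0.00054), and Lifr from 4.18 ± 0.422 to 6.45 ± 0.60 (0.039). The call of Lifr was lost in 11 alternatives, among them all 3 other scalings (0.097 to 0.14) and leaving out any 1 control or PDGF-NS library (0.061 to 0.12). Il6st fell from 81.1 ± 5.47 FPKM to 59.9 ± 7.02 (IGF-NS) and 59.3 ± 2.47 (PDGF-NS, adjusted p = 0.026 and 0.019). These calls were lost without control 1 or 2 or IGF-NS 1 or 3 in IGF-NS (0.060 to 0.087), and without control 2 or PDGF-NS 3 in PDGF-NS (0.058 and 0.077).

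Socs3, a feedback inhibitor that Stat3 induces, had 15.7, 12 and 14.8 FPKM in control, 8.17, 6.99 and 24.4 across IGF-NS, and 69.3, 52.5 and 103 across PDGF-NS. The PDGF-NS libraries stood above all others, and IGF-NS library 3 apart from its set. Socs3 rose in PDGF-NS by 2.28 ± 0.39 (limma, adjusted p = 0.0019), and in IGF-NS its difference was -0.29 ± 0.39 (0.63). Stat3 had 101 ± 6.42, 82.4 ± 13.1 and 125 ± 9.61 FPKM, and passed between the treated sets alone (0.61 ± 0.14, adjusted p = 0.013), a call lost without IGF-NS 1, PDGF-NS 2 or PDGF-NS 3 (0.051 to 0.065). Ctf1, the family cytokine cardiotrophin, fell in PDGF-NS from 53.9 ± 9.60 to 23.1 ± 0.757 FPKM (limma, adjusted p = 0.00030).

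All 28 listed NF-kB subunits, inhibitors and kinases were tested, with 3 rising and 2 falling in IGF-NS (median 0.05) and 5 rising and 1 falling in PDGF-NS (median 0.03). Of all tested genes, 17.4% rose and 7.48% fell in IGF-NS. In PDGF-NS these shares were 20.7% and 10.2%. Rela, the main activating subunit, had 185 ± 38.1, 122 ± 16.7 and 127 ± 10.4 FPKM and fell in both sets (limma, adjusted p = 0.032 and 0.043). The call in IGF-NS was lost in 6 alternatives, 5 of which leave out a single library (control 1 or 3, IGF-NS 1 or 2, or PDGF-NS 3, adjusted p from 0.052 to 0.11). In PDGF-NS it was lost in 10, among them leaving out control 1 or 3, IGF-NS 1 or any 1 PDGF-NS library (0.057 to 0.12). Nfkb1 had 16.6 ± 0.74, 15.7 ± 1.95 and 15.4 ± 1.60 FPKM, with adjusted p-values of 0.69 and 0.60. Tnfaip3, the deubiquitinase A20 that ends NF-kB signalling, rose in IGF-NS from 11.3 ± 2.36 to 17.9 ± 1.36 FPKM (0.015), a call lost without control 2 or 3 or IGF-NS 1 and with median ratio scaling (adjusted p from 0.051 to 0.056). In PDGF-NS it had 9.17 ± 0.731 FPKM (0.22).

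Of the IkB family, the nuclear members Bcl3 and Nfkbiz rose in PDGF-NS, where Nfkbia did not pass. Bcl3 had 0.761, 2.13 and 1.56 FPKM in control, 2.66, 2.46 and 3.90 across IGF-NS, and 22.0, 15.8 and 21.5 across PDGF-NS, a rise of 3.09 ± 0.24 (limma, adjusted p = 1.5e-05). Nfkbiz, which IL-6 gene induction by some stimuli needs, had 0.702, 0.874 and 1.01 FPKM in control, 1.26, 1.38 and 0.778 across IGF-NS, and 5.09, 5.87 and 12 across PDGF-NS. It rose by 2.13 ± 0.27 (adjusted p = 0.00031). For both genes the PDGF-NS libraries lay above all others.

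The list of IL-1, TNF and Toll-like receptor genes holds ligands, receptors, adaptors and inhibitors. Of its 23 genes, 15 were tested. There were 3 rises and 2 falls in IGF-NS (median 0.14), where 17.4% of all tested genes rose and 7.48% fell. The 10 rises and 1 fall in PDGF-NS (median 0.83) stand beside 20.7% rising and 10.2% falling there. Il1rn, the antagonist of the IL-1 receptor, had 0.545, 0.613 and 1.40 FPKM in control, 0.0545, 0.0936 and 0.0584 across IGF-NS, and 8.00, 4.24 and 4.94 across PDGF-NS. The sets did not overlap. Il1rn passed the filter on low values only through the PDGF-NS libraries, so its being tested rested on the set where it is high. It rose in PDGF-NS by 1.85 ± 0.25 (limma, adjusted p = 0.00044) and fell in IGF-NS by 0.76 (SE 0.25, 0.049). The latter call was lost in 12 alternatives, 7 of them leaving out 1 library (control 2 or 3, any IGF-NS, PDGF-NS 2 or 3, 0.055 to 0.15). Others that rose in PDGF-NS were Lbp, which carries lipopolysaccharide to Cd14 (2.15 ± 0.927 to 26.6 ± 12.6 FPKM, limma adjusted p = 6e-05), Cd14 (23.5 ± 5.29 to 59.7 ± 19.1, 0.0028) and the adaptor Myd88 (40.5 ± 3.12 to 80.1 ± 8.12, 0.00068). The receptor Tlr2 rose there from 2.46 ± 1.14 to 11 ± 1.44 FPKM (0.00028) and the TNF receptor Tnfrsf1a from 210 ± 7.81 to 431 ± 73.0 (0.0015). Tlr2 rose in IGF-NS as well, with log2 differences from 0.61 to 1.11 when single libraries were left out. That call was lost in 4 alternatives, 2 of them leaving out a single library (limma adjusted p of 0.051 and 0.067). Cd14 and Tlr2 are also made by macrophages, whose marker Cd68 was higher in PDGF-NS, mostly in library 1. Of the 14 leukocyte markers, though, 12 averaged under 1 FPKM and 7 were listed at 0 in every library. The part of macrophages in these values was not tested. The cytokine Tnf averaged 0.315, 0 and 0.0462 FPKM in control, IGF-NS and PDGF-NS.

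The IL-33 pair went opposite ways in IGF-NS. Il33, an alarmin of the IL-1 family, had 0.431, 0.811 and 0.971 FPKM in control, 7.91, 5.88 and 7.89 across IGF-NS, and 1.30, 0.800 and 1.12 across PDGF-NS, a rise in IGF-NS of 2.25 ± 0.20 (limma, adjusted p = 6.8e-05). Il33 passed the filter on low values only through the IGF-NS libraries, so its being tested rested on the set where it is high. Its receptor Il1rl1 had 5.29, 7.58 and 20.0 FPKM in control, 0.249, 0.257 and 0.213 across IGF-NS, and 2.29, 1.54 and 1.89 across PDGF-NS. Il1rl1 fell in IGF-NS by 3.07 (SE 0.36, adjusted p = 0.00041) and in PDGF-NS by 1.85 (SE 0.36, 0.0037), with no overlap between sets.

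**Figure D4:**
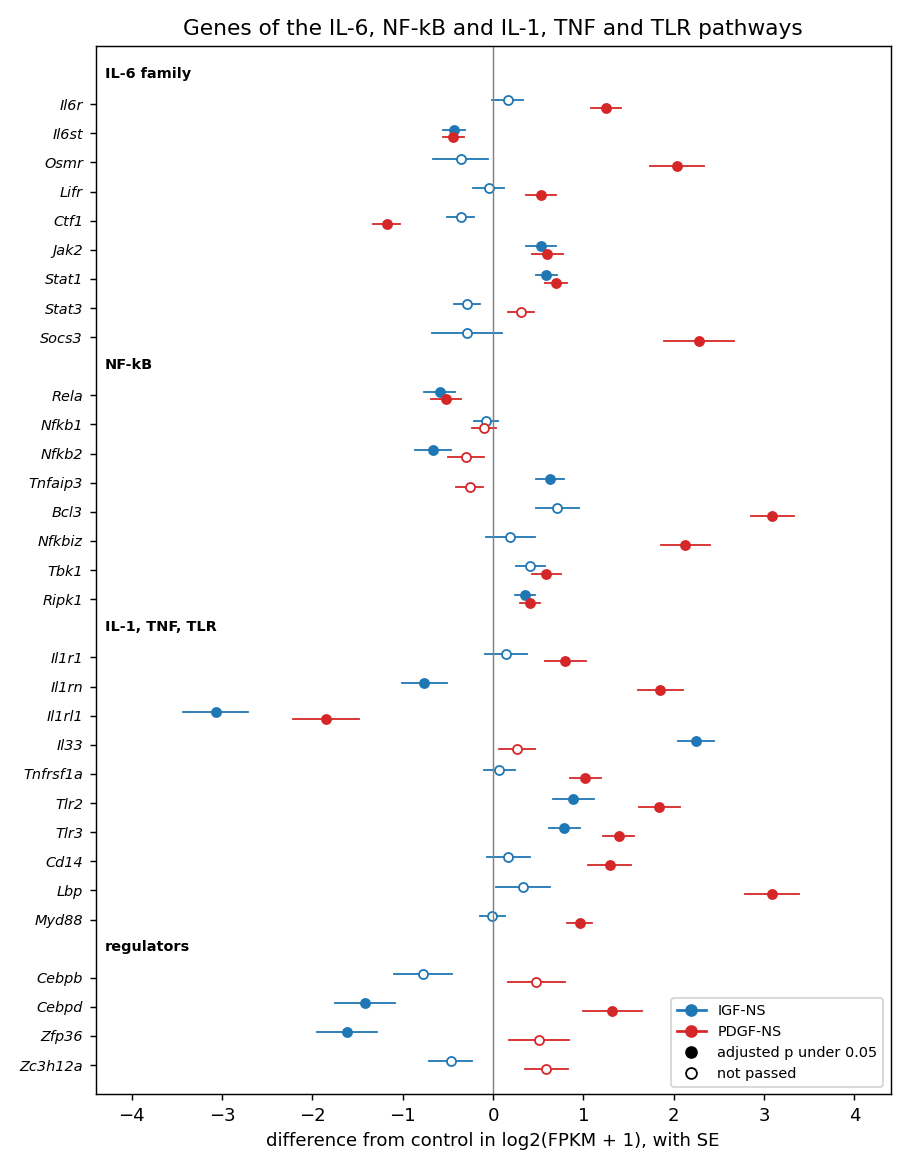
Log2 differences from control with SE (x axis, log2(FPKM + 1)) for some of the listed pathway genes, picked for the drawing after their values were seen, in IGF-NS (blue) and PDGF-NS (red); filled points passed an adjusted p of 0.05 in limma. Socs3, Bcl3, Nfkbiz and Lbp lie above 2 in PDGF-NS, and Il33 does so in IGF-NS.

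Regulators of cytokine transcription and mRNA decay made up a further list. Of 12 tested, 2 rose and 2 fell in IGF-NS (median -0.17), where 17.4% of all tested genes rose and 7.48% fell. In PDGF-NS 3 rose and 0 fell (median 0.38), where 20.7% rose and 10.2% fell. Between the treated sets 5 were higher and 0 lower in PDGF-NS, where 8.33% of all genes were higher and 7.55% lower. Cebpd, a transcription factor of the acute phase response, had 36.9, 26.2 and 30.1 FPKM in control, 7.44, 8.27 and 20.5 across IGF-NS, and 70.3, 64.7 and 105 across PDGF-NS. The sets did not overlap, and Cebpd fell in IGF-NS by 1.42 (SE 0.33, limma adjusted p = 0.012) and rose in PDGF-NS by 1.32 ± 0.33 (0.013). Each of these calls was lost without 1 library, IGF-NS 1 (-1.17, adjusted p = 0.051) and PDGF-NS 3 (1.11, 0.057). Zfp36, the decay factor tristetraprolin that destroys cytokine mRNAs, fell in IGF-NS from 81.6 ± 11.5 to 25.8 ± 2.16 FPKM (0.0070), and in PDGF-NS had 76.4, 89.4 and 226 FPKM (adjusted p = 0.27).

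By the root mean square difference over the 9 libraries of log2(FPKM + 1) centred on control, the closest of 8686 genes averaging 5 FPKM or more were named for each gene. This measure describes likeness over these libraries, which share sets and depth. Cxcl12 had Foxk1 (0.19), Ror1 (0.20) and Svil (0.25) nearest, Vcam1 had Lum (0.22), Ripk2 (0.24) and Add3 (0.27), and Icam1 had Ets1, Rras and Sdc4 (0.26 each). Ccl7 lay nearest to Eps8 (0.38), Enpep (0.46) and Ptgs1 (0.52), and Il6 to Osmr (0.46), Gnb4 (0.53) and Trpv2 (0.53). Ccl2 had no gene within 0.5, with Fxyd5 at 0.54, Pkp1 at 0.56 and Atp1b1 at 0.57, and Cxcl1 had Msmo1 at 0.46, Insig1 at 0.52 and Dclk1 at 0.53. Lif was nearest to Ncapd3 (0.22), Dnajb4 (0.25) and Dusp3 (0.25), Cx3cl1 to Ddhd2 (0.20) and Rp9 (0.22), and Nfkbia to Zc3h10 (0.09), Gpatch2 (0.10) and Mta2 (0.10).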

How the data were processed

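The 9 libraries were prepared from Trizol-extracted total RNA with a Lexogen SENSE mRNA kit, per the labels' protocols. The authors deposited FPKM per gene and library, with GSNAP and Cufflinks named in the submitters' processing notes. No version, genome build or annotation release is given there or in the labels. The value 999999999 stood in 10 cells of 4 genes, which were left out as failed estimates. After 2 duplicated rows were removed, 26401 genes were kept.

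FPKM are not counts, so limma 3.58.1 in R 4.3.3 (trended variances) was fitted to log2(FPKM + 1) for genes averaging 1 FPKM or more, all 9 libraries in 1 fit, two-sided, Benjamini-Hochberg within each of 3 contrasts. The procedure was tested on simulated data. The 10 genes and the 15 lists (247 genes, 242 matched, 4 by an older symbol) were chosen with earlier results of these data known, so no p was adjusted over a list. Listed genes were named if among the 3 largest called changes per list and contrast with at least 5 FPKM, or from a fixed set. A few others were named after their values were seen: Il6r, Ctf1, Cd14, Myd88, Tnfrsf1a, Tnf, Cxcl16, Ccl11, Cd68, the PDGF-NS value of Tlr2, and the values of Il1rn in IGF-NS and Des against control. Alternatives were other pseudocounts, filters, scalings, no trend, 6 libraries, a replicate block and leaving out each library.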

Additional observations from a re-analysis of the deposited data

Results flagged for a closer look

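For 6 of the 10 genes the change against control differed between the treated sets, by the direct limma contrast of PDGF-NS with IGF-NS. In that contrast 8.33% of all tested genes were higher and 7.55% lower in PDGF-NS. The difference of log2 changes was 2.88 for Ccl2, 2.97 for Ccl7 and 2.92 for Il6, each higher in PDGF-NS. It was 1.09 for Icam1, which lay below control in every library of both sets. It was -1.70 for Cxcl12 and -0.89 for Vcam1, each higher in IGF-NS. Of these, Vcam1 alone lost its call when single libraries were left out. One treated set was also harvested later than control, so factor and time cannot be told apart in these differences.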

How the results depend on the processing

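Of the 10 genes, 3, 5 and 6 were called in IGF-NS against control, PDGF-NS against control and PDGF-NS against IGF-NS, and leaving out 1 library gave 3 to 4, 4 to 6 and 5 to 7. Over all genes, 2827, 3521 and 1807 were called, with leave-one-out ranges of 1757 to 2935, 2374 to 3739 and 1014 to 2143. The 1757 was without IGF-NS library 1 and the 1014 without PDGF-NS library 3. The labels give same-numbered libraries no link beyond the number. Their deviations correlated at -0.276 to 0.253, and those of differently numbered libraries from different sets at -0.513 to 0.407. With the replicate block 2457, 3221 and 1530 genes were called, and of the 10 genes Cxcl1 lost its call in PDGF-NS against control, leaving 4.

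Some small differences that passed no test changed sign. Cx3cl1 in PDGF-NS against control was -0.02 with a common FPKM sum, -0.01 with median ratio scaling and -0.01 with quantile normalization, and leave-one-out gave -0.10 to 0.29. Nfkbia in PDGF-NS against control was -0.12, -0.11 and -0.11 with these scalings (leave-one-out -0.13 to 0.13). Between the treated sets Nfkbia was -0.05 with a common sum (leave-one-out -0.08 to 0.17), and in IGF-NS against control leave-one-out gave -0.20 to 0.10. Leave-one-out ranges were -0.85 to 0.38 for Cxcl1 in IGF-NS against control and -0.45 to 0.02 for Lif between the treated sets. The cause of the other sign changes was not tested. With a mean of at least 5 FPKM required, Il6 and Lif were not tested. Read depth is unknown, which limits statements on values under 1 FPKM.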

Other observations

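Of 16 other inflammatory mediators 8 were tested, with 2 rising and 1 falling in IGF-NS (median log2 difference 0.23) and 5 rising and 2 falling in PDGF-NS (median 1.06). Over all tested genes, 17.4% rose and 7.48% fell in IGF-NS, and 20.7% rose and 10.2% fell in PDGF-NS. Spp1, the secreted matrix protein osteopontin, had 366, 906 and 583 FPKM in control, 627, 803 and 472 across IGF-NS, and 10800, 8040 and 9580 across PDGF-NS. Control and IGF-NS overlapped, and every PDGF-NS library was far above them, a rise of 4.02 ± 0.31 (limma, adjusted p = 1.5e-05). The growth factor of macrophages Csf1 rose in PDGF-NS from 24.0 ± 0.727 to 56.8 ± 2.65 FPKM (adjusted p = 0.0020).

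The prostaglandin enzymes moved apart from each other. Ptgs1, the constitutive cyclooxygenase, had 5.98, 3.91 and 3.81 FPKM in control, 6.28, 5.20 and 5.47 across IGF-NS, and 52.1, 78.4 and 71.6 across PDGF-NS, where it rose by 3.62 ± 0.19 (limma, adjusted p = 3e-06). Ptgs2, the inducible cyclooxygenase, had 6.63, 9.94 and 14.7 FPKM in control and fell to 2.83 ± 0.301 in IGF-NS and 5.29 ± 1.02 in PDGF-NS (adjusted p = 0.0020 and 0.028). The fall in PDGF-NS was lost without control 2 or 3 or PDGF-NS 1 or 2 (0.066 to 0.093). Ptges, a prostaglandin E synthase, rose to 8.04 ± 2.51 FPKM in IGF-NS and 2.92 ± 0.534 in PDGF-NS from 1.08 ± 0.495 in control (adjusted p = 0.00033 and 0.015). Its rise in PDGF-NS was lost without control 2 or PDGF-NS 1 (0.051 and 0.056).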
